A study of Mus musculus with 36 samples.

Results

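The cortex of Hcrt knockout mice was compared with the cortex of wild-type mice of the same line, over all genes counted. All 6 libraries that carry those labels were used, 3 of knockout and 3 of wild-type mice, out of 36 libraries in the series. The series covers hypothalamus, cortex and brainstem of 4 genotypes, with 3 libraries for each combination. Besides the knockout and its wild type these are mice in which an ataxin-3 transgene, driven by the hypocretin promoter, kills hypocretin neurons, and the wild type of that line. The question set by the design is which transcripts differ when the Hcrt gene is missing, next to when the cells that express it are missing. The strain label is C57BL/6 for all 4 genotypes, and no treatment or time point is given. The knockout is the line of Chemelli and colleagues, in which the gene is disrupted in the germ line, so every cell of the body carries the change. The transgenic line is that of Hara and colleagues. Whether the 3 libraries of a group came from different animals is not in the labels. The p-values therefore set a difference against the spread among libraries only, and may not carry over to other animals.

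Hcrt encodes prepro-hypocretin, which is cut into the neuropeptides hypocretin-1 and hypocretin-2, also called orexin-A and orexin-B. They are made by neurons of the lateral hypothalamus that send axons through most of the brain, the cortex included, and act on the G protein-coupled receptors encoded by Hcrtr1 and Hcrtr2. Loss of hypocretin signalling gives mice a disorder of sleep and wakefulness that resembles human narcolepsy with cataplexy.

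Counts assigned to genes totalled 23860166 to 42707937 in the 6 libraries, the smallest being that of knockout library 2. Levels are given in CPM, counts scaled to the library size after TMM factors, in the order library 1, 2, 3 of each group, with means ± SD over 3 libraries. Changes are log2 fold changes of knockout over wild type with a standard error (SE). Markers of cortical excitatory neurons were high in each of the 6 libraries, with Slc17a7, the vesicular glutamate transporter of cortical neurons, between 1182 and 1304 CPM. Within a group, each pair of libraries differed beyond counting noise (chi-square per degree of freedom 2.46 to 7.70). On the first principal component of the 6 libraries, with 27.2% of the variance, knockout library 2 lay at -26.1 and the other 5 between -1.44 and 11.8.

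Hcrt itself was close to the limit of detection in cortex, and its level there did not separate knockout from wild-type libraries. The raw counts were 17, 10 and 9 in the knockout libraries and 1, 30 and 1 in the wild types. In CPM these were 0.399, 0.420 and 0.334 against 0.0326, 0.881 and 0.0244. Wild-type library 2 thus held more Hcrt than any knockout library, and the other 2 wild types held less than all of them. The 6 cortex libraries of the ataxin-3 line held 1 to 3 counts each. The log2 fold change was 0.33 (SE 0.78, edgeR quasi-likelihood test with Benjamini-Hochberg adjustment, adjusted p = 1.00). Without wild-type library 2 it was 3.63, with an edgeR adjusted p of 0.037. Pmch, which marks other neurons of the lateral hypothalamus, was counted 58 times in that library and 3 to 23 times in the other 5. The part of hypothalamic RNA in the value for Hcrt was not tested. In hypothalamus, where the gene is normally expressed, the knockouts had 1.23, 1.09 and 1.06 CPM and their wild types 86.9, 54.1 and 60.1. In brainstem the knockouts had 0.876, 0.893 and 1.27 CPM against 0.139, 0 and 0.0518. There Hcrt was higher in the knockouts and passed an edgeR adjusted p of 0.05. Reads of Hcrt were therefore counted in all 9 knockout libraries, and the range over the 3 tissues was 0.334 to 1.27 CPM.

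The receptor genes did not pass the test. Hcrtr1 had 2.77, 2.86 and 2.78 CPM in the knockouts and 3.00, 2.82 and 2.93 in the wild types, a log2 fold change of -0.06 (SE 0.13). Hcrtr2 had 3.00, 3.57 and 3.08 CPM against 3.19, 2.85 and 2.81, a log2 fold change of 0.12 (SE 0.13). The groups overlapped for both receptors. Of the 10 genes of hypocretin receptors and their signalling pathway, 1 lay above 0 and 9 below, with a median log2 fold change of -0.05 and no member past the threshold. The member with the smallest p was Plcb4, a phospholipase C, at -0.13 (SE 0.06, edgeR adjusted p = 1.00).

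Across all genes 13 of 16479 passed an edgeR adjusted p of 0.05 (0.0789%), with 4 higher (0.0243%) and 9 lower (0.0546%) in knockout cortex. No minimum fold was set. Of the 13 genes, 12 lay on chromosome 11 within 3.79 Mb of Hcrt, and the remaining gene was Adam33 on chromosome 2. The 2 genes nearest to Hcrt, Kcnh4 and Ghdc, were among those that fell. At an unadjusted p of 0.05, 543 genes passed (3.3%). In all 13 the 3 knockout libraries lay on the same side of the 3 wild types, which was so for 10.7% of all genes tested. In 12 of them the knockouts also lay outside the range of all 9 other cortex libraries, against 1.37% of all genes tested. The 13 genes were called from these same libraries, so their separation follows in part from that choice. Loss of the Hcrt gene and any other DNA inherited with the targeted allele cannot be told apart in this design.

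**Figure D1:**
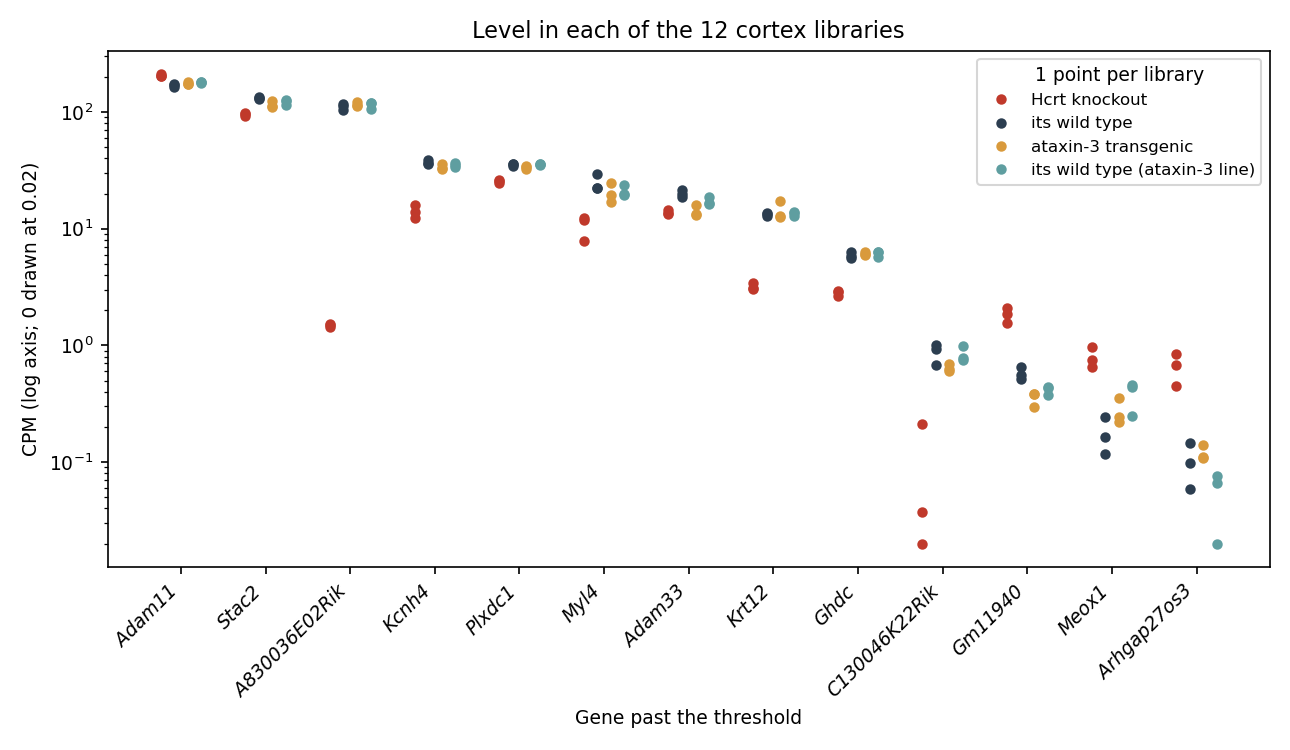
Level in CPM, on a log axis, of the 13 genes past the threshold in each of the 12 cortex libraries, 1 point per library, coloured by genotype. The knockout points stand apart from those of the 3 other genotypes for 12 genes, and for Adam33 they overlap with the ataxin-3 transgenic points, which lie between 13.2 and 15.9 CPM.

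The promoters of Hcrt and of the 4 genes that fell with the smallest p are shown because these genes lie in 2 small groups, beside Hcrt and 1.34 Mb away from it. The sequences run from 250 bases before to 50 after the RefSeq start of each gene, 5′ to 3′, on GRCm38.p6. For A830036E02Rik and Kcnh4 that start lies inside the GENCODE span printed with the gene's values, so that the window of A830036E02Rik falls wholly within its span. Capitals mark 3 motifs on either strand: the TATA box (letters TATAAA), the GC box (letters GGGCGG) and the E-box (letters CACGTG). On the opposite strand the GC box reads CCGCCC.
Hcrt promoter, chr11:100762882-100763181, minus strand: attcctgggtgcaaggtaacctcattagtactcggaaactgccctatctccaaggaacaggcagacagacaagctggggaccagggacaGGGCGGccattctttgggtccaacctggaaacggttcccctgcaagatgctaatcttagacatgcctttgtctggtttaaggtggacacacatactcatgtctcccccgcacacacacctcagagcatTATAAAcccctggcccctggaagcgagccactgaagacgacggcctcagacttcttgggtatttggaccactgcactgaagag
Kcnh4 promoter, chr11:100759729-100760028, minus strand: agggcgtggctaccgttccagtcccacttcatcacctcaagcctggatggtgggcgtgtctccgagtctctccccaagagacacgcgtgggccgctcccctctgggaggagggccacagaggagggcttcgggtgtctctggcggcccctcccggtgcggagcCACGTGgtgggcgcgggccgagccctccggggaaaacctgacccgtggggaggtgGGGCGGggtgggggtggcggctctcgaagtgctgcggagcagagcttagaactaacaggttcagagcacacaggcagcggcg
Ghdc promoter, chr11:100770908-100771207, minus strand: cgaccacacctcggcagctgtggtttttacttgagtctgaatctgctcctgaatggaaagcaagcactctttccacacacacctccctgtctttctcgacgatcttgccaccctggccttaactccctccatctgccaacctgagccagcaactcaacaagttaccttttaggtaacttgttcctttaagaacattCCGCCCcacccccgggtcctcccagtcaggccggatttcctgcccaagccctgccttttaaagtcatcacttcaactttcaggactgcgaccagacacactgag
Krt12 promoter, chr11:99422210-99422509, minus strand: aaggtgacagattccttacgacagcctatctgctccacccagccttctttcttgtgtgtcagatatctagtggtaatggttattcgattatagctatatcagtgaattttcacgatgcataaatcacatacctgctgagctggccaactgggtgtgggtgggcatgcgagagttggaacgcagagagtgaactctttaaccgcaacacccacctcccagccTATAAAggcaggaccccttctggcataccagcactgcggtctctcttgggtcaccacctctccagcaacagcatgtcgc
A830036E02Rik promoter, chr11:99416993-99417292, plus strand: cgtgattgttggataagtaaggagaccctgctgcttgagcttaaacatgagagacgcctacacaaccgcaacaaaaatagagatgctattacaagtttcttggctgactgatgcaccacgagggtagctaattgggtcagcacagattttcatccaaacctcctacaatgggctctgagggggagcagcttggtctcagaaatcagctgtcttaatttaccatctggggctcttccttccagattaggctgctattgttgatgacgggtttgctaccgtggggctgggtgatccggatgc
TATAAA was found in the windows of Hcrt and Krt12, and in 13.6% of all 32851 promoters of the table. GGGCGG was found in those of Hcrt, Kcnh4 and Ghdc, and in 35.7% of all. The E-box CACGTG was found in that of Kcnh4, and in 7.15% of all. The sites searched for cAMP response (TGACGTCA) and STAT factors (TTCNNNGAA), held by 1.79% and 8.30% of promoters, had no match in the 5 windows. No letter pattern of those searched was shared by the 4 genes that fell, and no searched motif overlapped another in these windows.

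The largest decrease was that of a member of a pair of overlapping transcripts on opposite strands, and its partner also fell. A830036E02Rik, an antisense RNA of unknown function (ENSMUSG00000084890, plus strand, chr11:99416956-99425497 in GRCm38), had 1.5, 1.43 and 1.52 CPM in the knockouts and 104, 112 and 118 in the wild types. The raw counts were 64, 34 and 41 against 3196, 3828 and 4823, so that the gene stayed countable in each knockout library. The log2 fold change was -6.22 (SE 0.10, edgeR adjusted p = 2.86e-15), which leaves 1.34% of the wild-type level. Krt12, a keratin best known from the corneal epithelium (ENSMUSG00000020912, minus strand, chr11:99415666-99422259), had 3.05, 3.11 and 3.45 CPM against 13.4, 13.7 and 12.8. It fell by 2.06 on the log2 scale (SE 0.13, edgeR adjusted p = 3.83e-07). The spans of these 2 genes overlap over 5304 bases and their exons over 1007 bases. How the reads were assigned to strands is not given in the sources used here, so the levels of the 2 genes may not be independent. Within the knockouts the libraries differed by little, with an SD of 0.048 CPM for A830036E02Rik and 0.217 CPM for Krt12.

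Kcnh4 and Ghdc, which both fell, lie on either side of Hcrt. Kcnh4, a voltage-gated potassium channel of the EAG family (ENSMUSG00000035355, minus strand, chr11:100740376-100759942), starts 1.13 kb beyond the 3′ end of Hcrt. Its knockout libraries lay between 12.2 and 16.0 CPM and its wild types between 35.9 and 38.9, which is -1.40 on the log2 scale (SE 0.08, edgeR adjusted p = 3.2e-07). Ghdc, which encodes a protein with a GH3 domain (ENSMUSG00000017747, minus strand, chr11:100766032-100770957), ends 3.10 kb before the start of Hcrt. It had 2.86, 2.65 and 2.93 CPM against 6.29, 5.87 and 5.64, which is -1.07 on the log2 scale (SE 0.09, edgeR adjusted p = 5.15e-05). In these bulk samples fewer cells of a type and less RNA per cell cannot be told apart. The next 3 tested genes on each side did not pass. On the lower side these were Rab5c, an endosomal GTPase, at -0.13, Kat2a, a histone acetyltransferase, at -0.13, and Dhx58, an RNA sensor of the innate immune system, at -0.51. On the higher side they were the transcription factor genes Stat5b at -0.30, Stat5a at -0.73 and Stat3 at -0.21. All 6 had a negative log2 fold change, and in all but Rab5c the 3 knockout libraries lay below the 3 wild types, which was so for 5.6% of all genes tested. The same held for 16 of the 61 genes tested within 1 Mb of Hcrt. The edgeR adjusted p was 0.485 for Stat5b, 0.912 for Stat3 and 1.00 for the other 4.

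Plxdc1 and Stac2 fell by smaller amounts with little spread. Plxdc1, a transmembrane protein with a plexin-like domain, had 26.2, 25.7 and 24.8 CPM in the knockouts and 35.9, 35.9 and 34.5 in the wild types (log2 fold change -0.47, SE 0.05, edgeR adjusted p = 0.000827). Stac2, an adaptor protein that binds voltage-gated calcium channels, had 91.6, 96.4 and 97.5 CPM against 133, 134 and 129 (-0.47, SE 0.06, edgeR adjusted p = 0.00101). They lie 2775 and 2708 kb from Hcrt, and for both genes the knockout and wild-type libraries did not overlap. Arl5c, 1 of 4 tested genes between them, at 2765 kb, differed in the other direction, with 2.53, 2.35 and 2.52 CPM against 1.27, 1.67 and 1.49. Its log2 fold change of 0.74 (SE 0.16) did not pass, at an edgeR adjusted p of 0.233, and it is named because its knockouts lay above all 9 other cortex libraries, as did those of 0.783% of all genes tested.

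On the other side of Hcrt, Myl4 and C130046K22Rik fell with more spread. Myl4, the essential myosin light chain of the heart atrium, had 12.2, 7.90 and 11.8 CPM against 22.5, 29.2 and 22.3 (-1.19, SE 0.17, edgeR adjusted p = 0.0281). C130046K22Rik, a noncoding transcript that shares 149 exon bases with the Golgi SNARE gene Gosr2 on the opposite strand, was counted 9, 0 and 1 times in the knockouts and 31, 32 and 28 times in the wild types. The 0 allows up to 3 counts, for counting error only. Its log2 fold change was -3.0 (SE 0.46, edgeR adjusted p = 0.0206), while Gosr2 was at 0.04 (SE 0.05). Adam33, a metalloprotease of the ADAM family on chromosome 2, had 13.2, 13.6 and 14.6 CPM against 18.6, 21.5 and 19.7 (-0.53, SE 0.09, edgeR adjusted p = 0.0319). It is the called gene whose knockout levels lay within those of other cortex libraries, since the ataxin-3 transgenic libraries had 15.9, 13.2 and 13.3 CPM.

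Of the 4 genes that rose, 3 had low counts. Gm11940, an antisense RNA that shares 146 exon bases with the keratin gene Krt10, was counted 89, 37 and 50 times in the knockouts and 20, 19 and 21 times in the wild types. In CPM these were 2.09, 1.56 and 1.86 against 0.651, 0.558 and 0.513 (1.70, SE 0.19, edgeR adjusted p = 0.000789), while Krt10 was at 0.13 (SE 0.15) and its groups overlapped. Meox1, a homeobox gene of the embryonic somites, was counted 28, 23 and 20 times against 5, 4 and 10 (2.08, SE 0.34, edgeR adjusted p = 0.0319). Arhgap27os3, which lies opposite the GTPase-activating gene Arhgap27 without sharing exon bases, was counted 29, 20 and 12 times against 3, 2 and 6 (2.61, SE 0.43, edgeR adjusted p = 0.0319). Arhgap27 differed in the other direction, at -0.31 (SE 0.08, edgeR adjusted p = 0.664). The abundant gene that rose was Adam11, a catalytically inactive ADAM protein of neurons, with 202, 211 and 203 CPM against 175, 171 and 164. Its increase was 0.27 on the log2 scale (SE 0.05, edgeR adjusted p = 0.0418), the smallest among the 13.

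The 13 calls were not equally firm. Leaving out each of the 6 libraries in turn kept A830036E02Rik, Kcnh4, Krt12, Ghdc, Gm11940, Plxdc1 and Stac2 past the threshold in all 6 fits. Adam11, Adam33, Meox1 and Myl4 were lost in all 6, Arhgap27os3 was kept in 1 and C130046K22Rik in 2. Total calls were then 7 or 8. Without knockout library 2, which stood apart on the first principal component, 8 genes passed. In a fit of all 36 libraries 8 genes passed, 5 of them among the 13. Kcnh4, Krt12, Gm11940, Plxdc1, Stac2, Adam11, Adam33 and Arhgap27os3 were lost there, at fold changes close to those in cortex alone: Kcnh4 was at -1.40 and Plxdc1 at -0.47, both with an edgeR adjusted p of 1. Other fits called more genes, 22 with DESeq2, 35 with limma voom and 26 with only the 6 libraries, and the first 2 of these held all 13. The biological coefficient of variation was 7.35% in cortex, 18.0% in hypothalamus and 9.03% in brainstem.

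The share of genes with separated groups varied with the distance from Hcrt, which is given as a description, with no test. Of 61 genes tested within 1 Mb, the knockout and wild-type libraries did not overlap for 32.8%. The share was 40.9% of 44 genes between 1 and 2 Mb, 26.3% of 114 between 2 and 5 Mb and 15.2% of 92 between 5 and 10 Mb. On the rest of chromosome 11 it was 12% of 1040 genes, and on other chromosomes 10.3% of 15128. The knockouts lay outside all 9 other cortex libraries for 19.7%, 27.3%, 12.3% and 4.35% of genes in the same 4 bands, for 13 of the 1040 genes on the rest of chromosome 11 and for 1.12% elsewhere. The bands held 2, 5, 5 and 0 of the called genes.

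**Figure D2:**
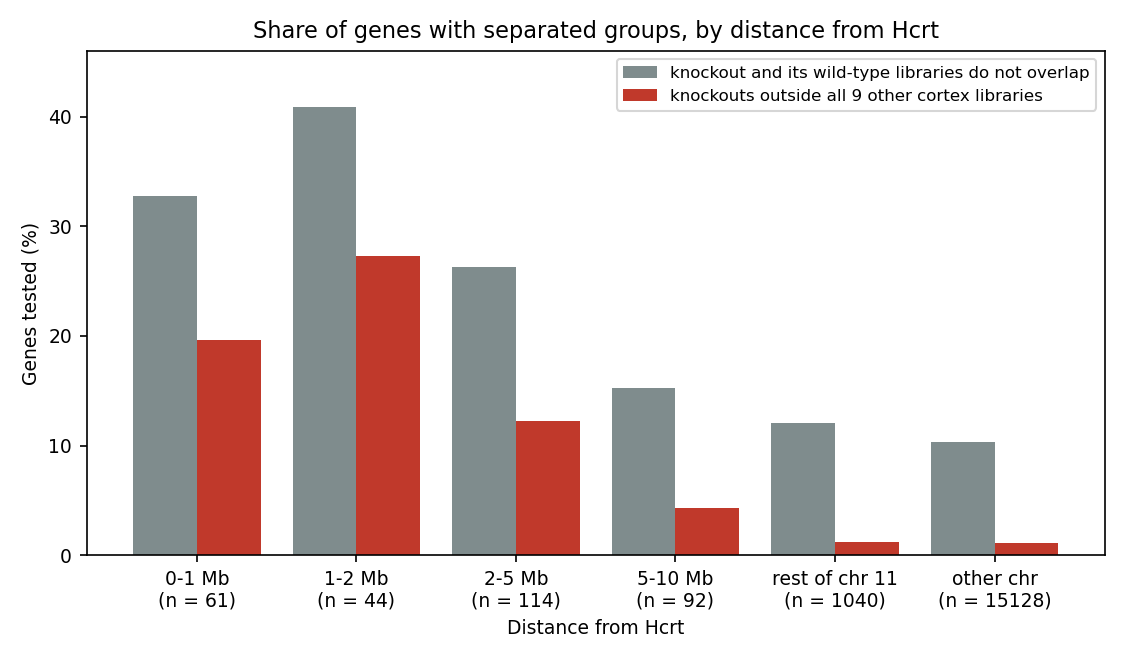
Percent of genes tested in 6 bands of distance from Hcrt (n under each band) for which the knockout and wild-type cortex libraries did not overlap (grey bars) or the knockouts lay outside all 9 other cortex libraries (red bars). The red bars reach 27.3% between 1 and 2 Mb and stand at 4.35% between 5 and 10 Mb and 1.12% on other chromosomes.

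Between the outermost called genes, Plxdc1 and Myl4, 161 genes were tested and 12 were called (7.45%). Non-overlap went both ways, with 30 genes higher and 30 lower in the knockouts, and the median log2 fold change of the 161 genes was 0.02. Within 1 Mb of Hcrt 16 such genes were lower and 4 higher, between 1 and 2 Mb 5 were lower and 13 higher, and between 2 and 5 Mb 11 were lower and 19 higher. Over all genes tested the shares were 5.6% lower and 5.12% higher. The median absolute log2 fold change was 0.13 within 1 Mb, 0.12 between 1 and 2 Mb, 0.08 between 2 and 5 Mb and 0.05 on other chromosomes. Fold changes of called genes had no order by distance: the largest decrease lay 1336 kb from Hcrt and the largest increase 2582 kb from it.

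**Figure D3:**
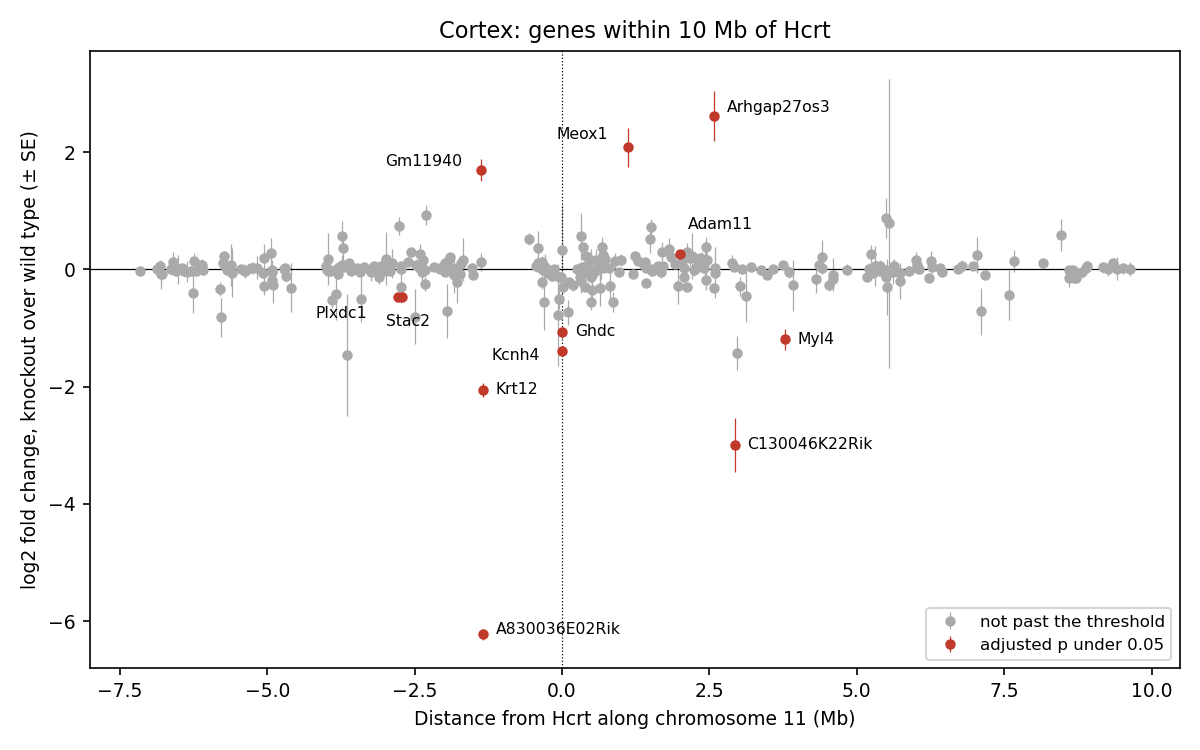
log2 fold change (knockout over wild type, ± SE) of each tested gene within 10 Mb of Hcrt against its distance from Hcrt along chromosome 11, with the 12 genes past the threshold in red. They lie from 2.77 Mb on the lower side to 3.79 Mb on the higher side, and run from -6.22 for A830036E02Rik to 2.61 for Arhgap27os3.

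Several genes of the same interval came next in order of p without passing. Among the 5 higher genes, Tubg1, which encodes gamma-tubulin, had 36.9, 35.9 and 39.8 CPM in the knockouts against 30.7, 29.3 and 26.5 (0.38, SE 0.07, edgeR adjusted p = 0.0683). Grb7, a receptor adaptor, was at 0.92 (SE 0.17, edgeR adjusted p = 0.0683) and Asb16, a SOCS box protein, at 0.72 (SE 0.14, edgeR adjusted p = 0.106). The keratin gene Krt9 was at 0.52 (SE 0.10, edgeR adjusted p = 0.115). These 4 lie 357 to 2306 kb from Hcrt, while Fkbp5, a glucocorticoid-induced co-chaperone on chromosome 17, was at 0.27 (SE 0.05, edgeR adjusted p = 0.144). Among the 5 lower genes, Gfap, the intermediate filament of astrocytes, lies 2124 kb from Hcrt. It had 76.9, 78.5 and 80.8 CPM against 96.1, 93.3 and 102 (-0.30, SE 0.05, edgeR adjusted p = 0.0683). The other 11 genes of the astrocyte list lay between -0.13 and 0.10. Gm11642, at 2961 kb, was at -1.43 (SE 0.29) with an edgeR adjusted p of 0.168. Ephx3 (chromosome 17, -1.73, SE 0.34), the axon guidance receptor gene Robo3 (chromosome 9, -0.35, SE 0.07) and Scube1 (chromosome 15, -0.26, SE 0.06) had edgeR adjusted p-values of 0.115, 0.144 and 0.405. The knockout and wild-type libraries did not overlap for these 10, against 10.7% of all genes tested, but the genes were chosen for their small p in the same libraries. With DESeq2, 8 of these 10 passed, all but Ephx3 and Gm11642.

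The ataxin-3 line was the other model measured in the same tissue, with its own wild types, so no control library is shared. In cortex 0 genes passed there (0% of 16479) with edgeR, and 839 had an unadjusted p under 0.05. For the 13 genes that passed in the knockout, the ataxin-3 effect lay between -0.48 and 1.2 on the log2 scale, with edgeR adjusted p-values of 0.751 or more. The difference between the 2 effects was past the threshold for 4 genes (0.0243%): A830036E02Rik at -6.24 (SE 0.12, edgeR adjusted p = 4.93e-14), Krt12 at -2.14 (SE 0.16, 1.35e-05), Kcnh4 at -1.35 (SE 0.11, 2.56e-05) and Ghdc at -1.07 (SE 0.13, 0.00208). For the other 9 the difference did not pass, the nearest being Gm11940 at 1.92 (SE 0.32, edgeR adjusted p = 0.0772). The 6 libraries of the ataxin-3 line had 105 to 123 CPM of A830036E02Rik, 32.8 to 36.2 CPM of Kcnh4, 12.5 to 17.4 CPM of Krt12 and 5.69 to 6.27 CPM of Ghdc. They lay near the wild types of the knockout line in each case. Between the wild types of the 2 lines 0 genes passed (0%), and 538 had an unadjusted p under 0.05.

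The same mutation was also measured in hypothalamus and brainstem, in libraries of their own. Between knockout and wild type, 2 genes passed in hypothalamus (0.0119% of 16738) and 12 in brainstem (0.0728% of 16493) by the same test within each tissue. Ghdc was called in all 3 tissues, with 5.53 ± 0.575 against 10.1 ± 0.555 CPM in hypothalamus and 7.24 ± 0.725 against 11 ± 0.700 CPM in brainstem (SD, n = 3). Of the cortex calls 5 (38.5%) were also brainstem calls, which was 41.7% of those of brainstem: Adam11, C130046K22Rik, Ghdc, Gm11940 and Stac2. Each of the 5 went the same way in both tissues. Of the cortex calls that were tested elsewhere, 10 of 11 had the same sign in brainstem and 10 of 12 in hypothalamus. Some of these effects lay near 0, such as those of Plxdc1 and Myl4 in brainstem. The share of all genes with the same sign was not counted.

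A830036E02Rik and Kcnh4 were not called in hypothalamus or brainstem, where their levels were lower than in cortex. A830036E02Rik had 0.0302, 0.232 and 0.151 CPM in knockout brainstem against 0.445, 0.695 and 0.493 in its wild type. In hypothalamus it had 0, 0.167 and 0.125 CPM against 22.8, 0.514 and 4.91, a wide spread among the wild types. Kcnh4 had 0.623 ± 0.473 CPM in knockout hypothalamus against 4.07 ± 0.608, and 0.0542 ± 0.0693 against 0.294 ± 0.0374 in brainstem (SD, n = 3). The edgeR adjusted p was 0.806 in hypothalamus for both genes, and 0.611 and 0.657 in brainstem. Plxdc1 and Myl4 had effects near 0 outside cortex: 0.06 and -0.06 in hypothalamus and -0.03 and -0.06 in brainstem. Meox1, a gene of few counts in cortex, was at -0.26 in hypothalamus, opposite in sign to cortex, and at -0.02 in brainstem. Tested in a fit of all 36 libraries, the difference between cortex and hypothalamus passed for 1 gene (0.00564% of 17744), which was Hcrt at 6.24 (SE 0.88, edgeR adjusted p = 0.00257). DESeq2 called 8 genes for that difference and limma voom 4. Between cortex and brainstem 0 genes passed (0%) with edgeR, where 275 had an unadjusted p under 0.05, while DESeq2 called 0 and limma voom 3. For Plxdc1, Myl4 and Meox1 the edgeR adjusted p of the difference was 0.118 or more. In that fit the cortex effect of Plxdc1 itself did not pass, so these p-values do not show that the tissues were alike.

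**Figure D4:**
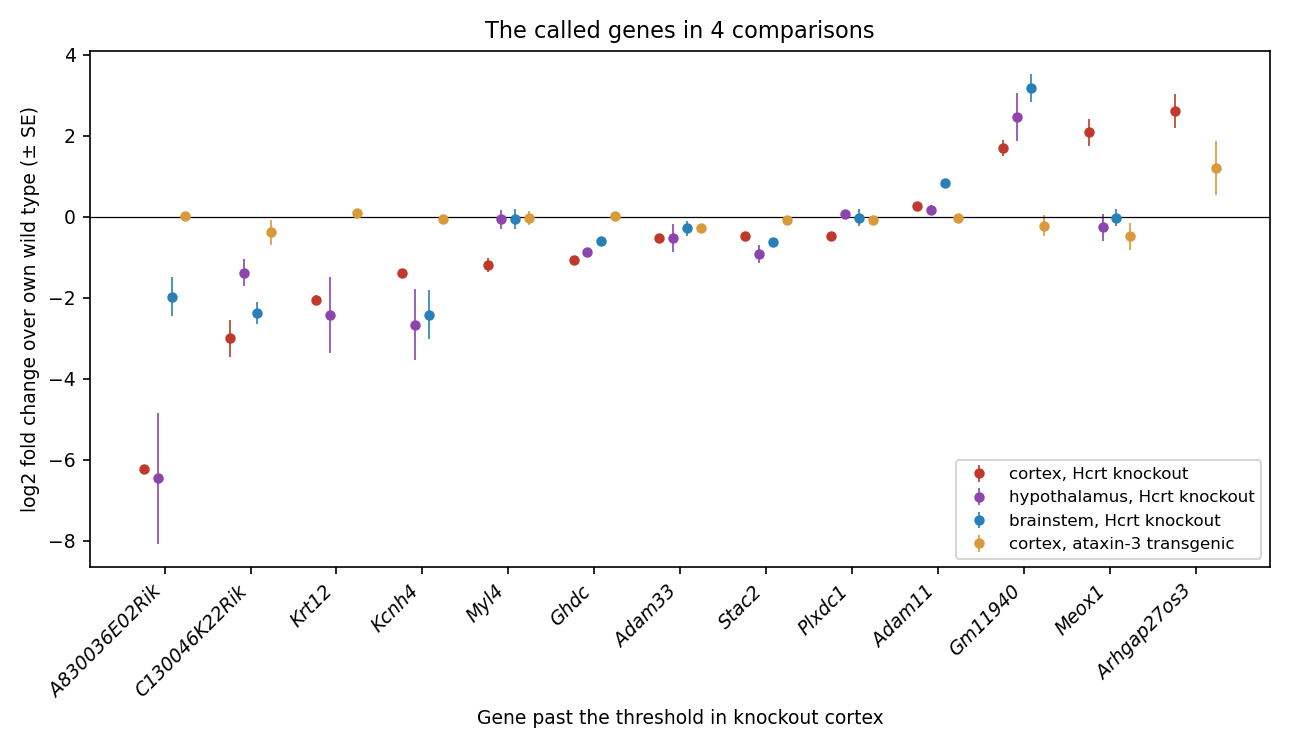
log2 fold change over its own wild type (± SE) of the 13 genes past the threshold in knockout cortex, shown for knockout cortex, hypothalamus and brainstem and for ataxin-3 transgenic cortex, each from the fit of its tissue. The ataxin-3 points lie between -0.48 and 1.2, and points for a tissue are missing where the gene was not tested there.

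Gene lists for cell types, regions and pathways were described by counts and medians, against a median of -0.000599 and 8186 genes above 0 and 8293 below over all genes tested. Of the 31 lists, those of EAG family channels and of chromosome 11 keratins each held 1 called gene, Kcnh4 and Krt12, and the other 29 held 0. Beside Kcnh4, the 7 other EAG family channels lay between -0.47 and 0.26. Kcnh2, the hERG channel, was at -0.18 (SE 0.06) with groups that did not overlap and an edgeR adjusted p of 1.00. The 19 other voltage-gated potassium channels lay between -0.09 and 0.12. Beside Krt12 and Krt9, the keratin genes Krt10 and Krt222 were tested, and Krt222, with 54.9, 54.2 and 54.6 CPM against 57.9, 59.8 and 56.7, was at -0.09 (SE 0.05).

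The STAT5 list, chosen because Stat5a and Stat5b lie beside Hcrt, had 4 members above 0 and 10 below of 14 tested, with a median of -0.05 and 0 called. Stat5b had 26.7, 25.5 and 26.1 CPM in the knockouts and 31.1, 29.9 and 35.2 in the wild types. Stat5a, which is low in cortex, had 1.01, 0.925 and 0.891 CPM against 1.69, 1.12 and 1.90. The knockout libraries lay below all 9 other cortex libraries for both, as they did for 0.583% of all genes tested. Within 1 Mb of Hcrt the knockouts lay outside those 9, on either side, for 19.7% of 61 genes. Of genes that STAT5 is known to induce, the kinase gene Pim1 was at -0.36 (SE 0.15), and the genes of the signalling inhibitors Cish, Socs2 and Socs3 were at -0.01, -0.01 and 0.29, each with an edgeR adjusted p of 1.00. Socs1, a further inhibitor gene on the list, was at -0.63 (SE 0.27) and did not pass. Its level was low, with 0.516, 0.294 and 0.334 CPM in the knockouts against 0.749, 0.470 and 0.659.

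Markers of the main cell types of cortex differed by little. The median was 0.01 for 15 markers of excitatory neurons, -0.06 for 16 of inhibitory interneurons, -0.000250 for 12 of astrocytes, -0.02 for 12 of microglia and -0.01 for 12 of endothelium and pericytes. All 12 oligodendrocyte markers lay below 0 with a median of -0.10, and their summed level was 4334 to 4574 CPM in the knockouts and 4663 to 4919 in the wild types. Among them Cnp, at -0.11 (SE 0.06) with overlapping groups, lies within 1 Mb of Hcrt. Opalin, a myelin membrane protein, was at -0.27 (SE 0.09), with an edgeR adjusted p of 1.00. Wild-type library 3 stood apart in some interneuron genes. Calb2, the calretinin gene, had 34.5 CPM there and 6.06 to 13 in the other 5, and Dlx1, a transcription factor gene of interneurons, 45.4 against 19.5 to 23.5.

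Striatal markers were the list farthest above 0. All 12 lay above 0, with a median of 0.47, and the median stayed between 0.34 and 0.65 over the 14 alternative analyses. None passed the threshold. Drd2, the dopamine D2 receptor gene, had 8.68, 8.45 and 10.5 CPM against 7.52, 2.91 and 5.47 (0.80, SE 0.35, edgeR adjusted p = 1.00). Adora2a, an adenosine receptor gene, had 14.7, 14.4 and 19.1 CPM against 13.2, 5.84 and 9.13 (0.78, SE 0.31, edgeR adjusted p = 1.00). The summed level of the list was 587, 603 and 693 CPM in the knockouts and 597, 362 and 464 in the wild types, so wild-type library 1 lay within the knockouts and libraries 2 and 3 below them. The groups did not overlap for 5 of the 12, against 5.12% of all genes in that direction. Rgs9, which is among those 5, and Ppp1r1b, whose groups overlapped, lie within 10 Mb of Hcrt. In that window 43 of 311 genes tested did not overlap in that direction. The share of striatal tissue in each sample was not measured otherwise, and its part in these values was not tested.

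Blood genes were the list farthest below 0. All 6 tested members lay below 0, with a median of -0.42 (-0.51 to -0.36 over the alternatives), and 5 of the 6 had groups that did not overlap, against 5.6% of all genes in that direction. The beta-globin gene Hbb-bs had 29.6, 24.9 and 29.5 CPM against 40.7, 39.6 and 37.0 (-0.48, SE 0.17, edgeR adjusted p = 1.00). It passed in 1 of 14 alternatives. The erythroid heme synthesis gene Alas2 had 2.25, 2.10 and 2.52 CPM against 3.32, 3.29 and 2.78. Meningeal markers had a median of -0.10, with 9 of 12 below 0, and Col1a1, a collagen gene 5808 kb from Hcrt, was at -0.33 (SE 0.11). Choroid plexus markers varied between libraries, with Ttr, the transthyretin gene, at 14.0, 45.4 and 39.8 CPM against 17.3, 6.93 and 21.6.

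Genes that follow neuronal activity and time awake showed small differences of mostly the same sign. Of 23 immediate early genes 20 were above 0, with a median of 0.12 that ran from 0.01 without knockout library 2 to 0.23 without wild-type library 3, but the summed level was 1872, 2325 and 2002 CPM in the knockouts and 1807, 1703 and 2169 in the wild types, so the groups overlapped. Knockout library 2, the one apart on the first principal component, had the highest sum. Egr1 had 432, 523 and 458 CPM against 383, 362 and 469 (0.22, SE 0.11), and Homer1 212, 253 and 224 against 207, 212 and 207 (0.14, SE 0.08). Of 17 genes of sleep need and heat shock 15 were above 0 (median 0.11), among them the endoplasmic reticulum chaperone gene Hspa5 at 0.17 (SE 0.06) and Xbp1 at 0.16 (SE 0.06). Each of these 4 genes had an edgeR adjusted p of 1.00.

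No clock or glucocorticoid response gene passed the threshold. Of 19 clock genes 13 were above 0 and 6 below, with a median of 0.06, and Nfil3, a repressor that binds D-box sites, was the lowest at -0.24 (SE 0.12). Per2 had 106, 114 and 113 CPM in the knockouts and 96.2, 87.0 and 99.8 in the wild types (0.23, SE 0.10), and Cry1 27.7, 31.3 and 25.6 against 23.6, 24.1 and 25.4 (0.21, SE 0.07). Both encode repressors of the clock, and neither passed, with an edgeR adjusted p of 1.00. Of 14 glucocorticoid response genes 13 were above 0 with a median of 0.06, and Fkbp5, given above, had the smallest p. Per1 is on the clock, glucocorticoid and immediate early lists. Homer1, Arc and Bdnf are on both the immediate early list and that of sleep need and heat shock. The counts of these lists are therefore not independent. Time of day and time awake at sampling are not in the labels, and their part in these values was not tested.

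Receptors through which wake-promoting transmitters act did not pass. Of 20 monoamine receptor genes tested 11 were above 0 with a median of 0.03, and the member of smallest p, Drd2, is also a striatal marker. Of 11 genes of the acetylcholine system 6 were above 0, with a median of 0.03. Chat, the enzyme gene of acetylcholine synthesis, had 1.22, 1.56 and 1.71 CPM against 1.11, 0.910 and 0.879 (0.61, SE 0.31, edgeR adjusted p = 1.00). The 14 GABA receptor genes lay between -0.09 and 0.05, and the 21 glutamate receptor genes between -0.18 and 0.13. Of 10 genes known from hypocretin neurons 8 were tested, and Pdyn, the prodynorphin gene, was at 0.21 (SE 0.08) with 26.5, 27.4 and 26.1 CPM against 23.7, 24.2 and 21.2 and an edgeR adjusted p of 1.00.

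The remaining lists held no called gene either. Medians were 0.01 for oligodendrocyte precursors, 0.01 for ciliated ependyma, 0.02 for hippocampus, -0.01 for thalamus, 0.04 for hypothalamic peptides, 0.24 for choroid plexus (-0.04 without wild-type library 2 and 0.47 without knockout library 1), -0.07 for interferon and antigen presentation genes and -0.08 for the mitochondrial genome. All 7 tested mitochondrial genes lay below 0, between -0.21 and -0.05, with overlapping groups. Cd74, the invariant chain of MHC class II, had 3.31, 3.03 and 3.34 CPM against 2.31, 2.47 and 2.61 (0.39, SE 0.19, edgeR adjusted p = 1.00). Within the 16 interferon and antigen presentation genes it had the smallest p.

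**Figure D5:**
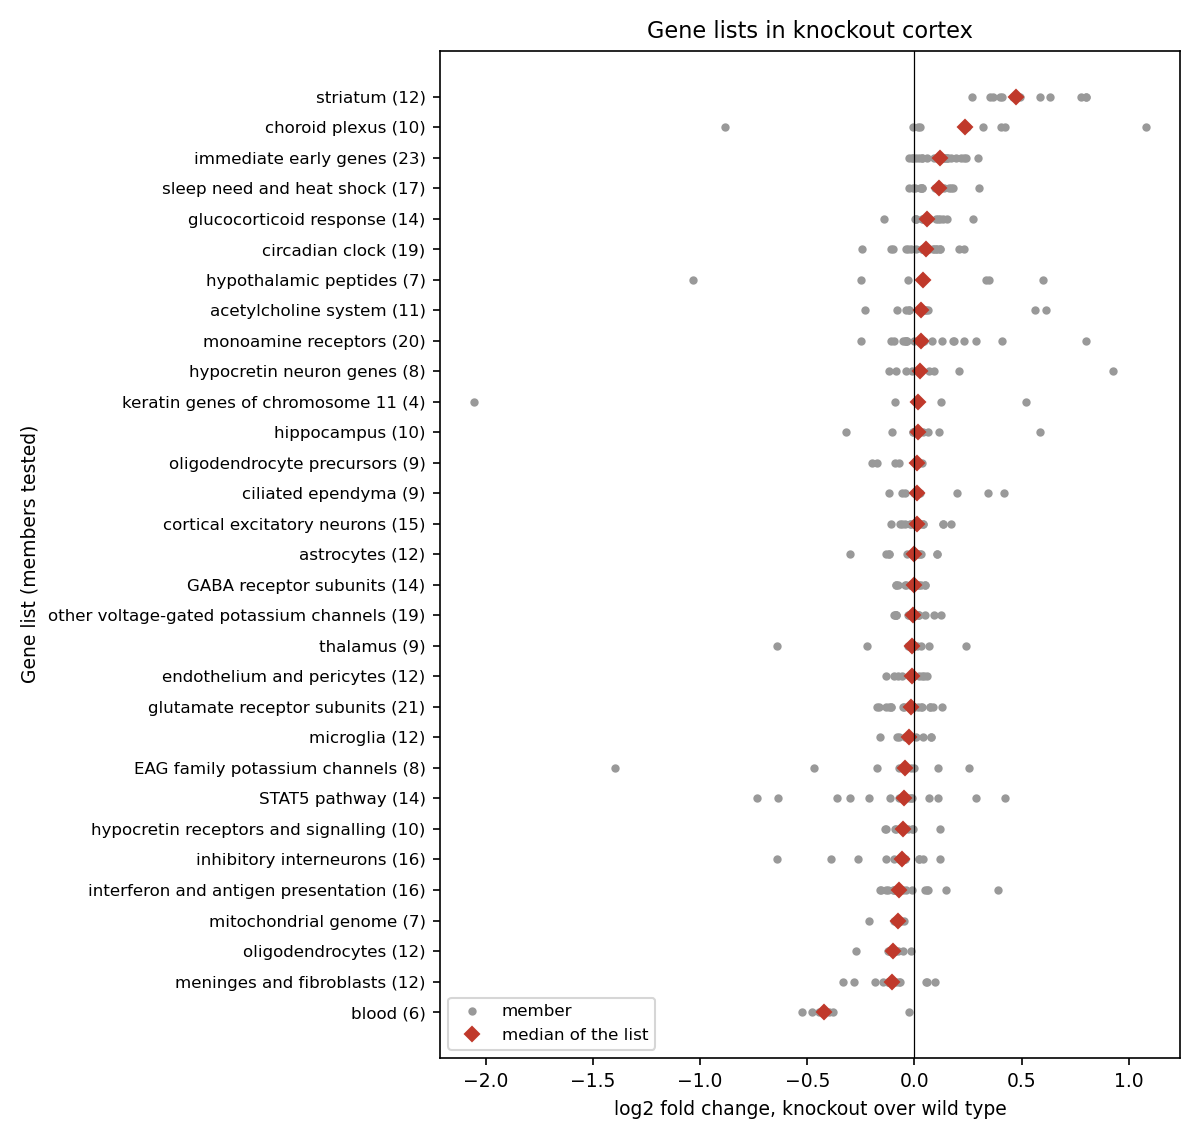
log2 fold change (knockout over wild type) of the tested members of 31 gene lists (grey points) with the median of each list (red diamonds), ordered by median, with the number of members tested in brackets. Medians run from -0.42 for blood to 0.47 for striatum, and the points far to the left are Kcnh4 and Krt12, the members past the threshold.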

How the data were processed

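Each cortex library was made from mRNA with a stranded kit, per the labels' protocols. The authors deposited raw counts per gene, 1 table per library. Per the submitters' processing notes, the tools behind them were cutadapt 1.2.1, TopHat2 2.0.9 and HTSeq 0.5.4p3, with GRCm38 as genome build. For the counting, the sources used here give no strand setting, overlap mode or annotation, so overlapping genes may share reads. Of 38924 genes, 37607 matched GENCODE M21. Another 5 lines hold reads of no gene (29.5% to 31.1% of the total in the 6 libraries) and entered neither library sizes nor tests. The limit given for a count of 0 covers counting error alone, as the labels name no molecular identifiers.

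The 12 cortex libraries, in 4 groups from the labels, entered 1 model in edgeR 4.0.16 (R 4.3.3), with TMM factors, the default expression filter by group, robust quasi-likelihood tests, Benjamini-Hochberg adjustment and a threshold of 0.05. An SE is the size of the log2 fold change divided by the root of its F statistic. Hypothalamus and brainstem were each fitted alike, and differences between tissues came from 1 model of all 36 libraries. On simulated counts for the cortex knockout comparison (16479 genes), 28% of 1.25-fold, 76% of 1.5-fold, 82% of 2-fold and 94% of 4-fold changes were recovered (50 genes each), with 11 unchanged genes called. All these changes were planted together, so far more genes differed than passed in the real data. That makes the adjusted threshold easier to reach, and recovery in the real data may be lower.

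The comparison and gene lists were chosen with earlier results of these data known. Named were all genes past the threshold, the next 5 in each direction, Hcrt, its receptors and its 4 neighbours on each side, up to 4 members of smallest p per list discussed, and genes past a test of a difference. Arl5c, antisense partners, Pmch, Calb2, Dlx1, Trh, Zic1, Ttr, Slc17a7, Krt222, Cish, Socs1, Socs2 and Socs3 were chosen after their values were seen. So were Arc, Rgs9 and Ppp1r1b, named for their lists or position. Ctgf and Lhfpl3, on the lists, matched no line. Tried besides were DESeq2 1.42.0, relative log expression factors, no expression filter, CPM over 1 in at least 3 libraries, a replicate block, voom with quality weights (limma 3.58.1), other sets of libraries and each of the 6 libraries left out. Results that name items withheld for evaluation are not reported here.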

Additional observations from a re-analysis of the deposited data

Results flagged for a closer look

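The effect of the knockout in cortex differed from that of the ataxin-3 transgene in cortex, by the test of the difference in edgeR, for 4 genes. For A830036E02Rik the difference was -6.24 on the log2 scale, with a knockout effect of -6.22 and an ataxin-3 effect of 0.02. For Krt12 it was -2.14, from -2.06 and 0.09. For Kcnh4 it was -1.35, from -1.40 and -0.05. For Ghdc it was -1.07, from -1.07 and 0.01. All 4 were past the threshold in all 12 alternatives of that test.

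The effect of the knockout on Hcrt differed between cortex and hypothalamus by 6.24 on the log2 scale, from 0.33 in cortex and -5.90 in hypothalamus, with 5.60 to 9.53 over 12 alternatives. It passed in 11 of them and not without knockout cortex library 1, where the edgeR adjusted p was 0.101. Hcrt had 0.0326, 0.881 and 0.0244 CPM in wild-type cortex, so the cortex effect rests on few reads. That effect was 3.63 without wild-type library 2 and -0.29 without wild-type library 3.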

How the results depend on the processing

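Against the main count of 13 genes (4 higher, 9 lower, 12 within 10 Mb of Hcrt), DESeq2 called 22 (10 higher, 12 lower), voom 35 (15 higher, 20 lower, 27 within 10 Mb) and a fit of only the 6 libraries 26 (12 higher, 14 lower, 20 within 10 Mb). The fit of all 36 libraries called 8, with 5 lower. Without an expression filter 7 genes were higher, and with the CPM filter 2. Leaving out a library gave 7 to 8 calls, 1 to 2 of them higher and 7 to 8 near Hcrt. The cause of these shifts was not tested.

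With the replicate block 8 genes passed, 1 of them higher, and Adam11, Adam33, Arhgap27os3, Meox1 and Myl4 were lost. The libraries share only a number: same-numbered knockout and wild-type libraries correlated at 0.092, 0.090 and 0.063 in their deviations from the group means, and knockout library 3 correlated more with wild type 1 (0.085).

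The difference from the ataxin-3 effect passed for 8 genes with DESeq2 and 8 with voom, against 4. The difference from hypothalamus passed for 8 with DESeq2, 4 with voom and 0 to 1 with a library left out, against 1, and that from brainstem for 3 with voom, against 0. With a library left out Hcrt ran from -0.29 to 3.63, turning to -0.14 without wild type 1 and -0.29 without wild type 3, and Gosr2 ran from -0.0013 (without knockout 3) to 0.057. Of 517 values for single genes under alternatives 425 kept their direction and side of the threshold, 50 lost and 39 gained a call, and 3 turned. Of 434 list medians 421 moved by less than the replicate spread. Genes of few counts, such as C130046K22Rik, Meox1 and Arhgap27os3, have the least certain fold changes.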

Other observations

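Outside the neighbourhood of Hcrt, chromosome 18 held the largest share of genes whose 3 knockout libraries lay outside all 9 other cortex libraries, with 15 of 422 genes tested (3.55%), against 1.12% for all chromosomes other than 11. None of the 422 passed the threshold with edgeR, where 13 had an unadjusted p under 0.05. On all chromosomes other than 11, 2.98% of genes had an unadjusted p under 0.05. Against their own wild types alone, the knockouts did not overlap for 10.4% of the 422 genes, and for 10.3% on other chromosomes. On the other autosomes the share ran from 0.605% on chromosome 5 to 1.53% on chromosome 8.

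Wild-type library 3 also had more Trh, the thyrotropin-releasing hormone gene, than the rest, with 4.88 CPM against 0.851 to 1.60 in the other 5 libraries. Zic1, a zinc finger transcription factor gene, had 24.3 CPM there against 12.7 to 15.5.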
